A study of Rattus norvegicus with 50 samples.

Results

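The tumour necrosis factor (TNF) superfamily was followed in whole blood of rats with a chemically damaged knee joint and of rats left intact. Its members were taken by symbol from the platform's table of probe sets and genes: a probe set counted if it carried a single symbol that was Tnf, Lta, Ltb, Ltbr, Fas, Faslg, Cd27, Cd40, Cd40lg or Cd70, or that began with Tnfsf or Tnfrsf. This gave 31 genes, measured by 32 probe sets, of 14557 gene symbols and 36685 probe sets in all. They were 15 ligand genes and 16 receptor genes, and all 31 had an entry with the same symbol in the RefSeq gene table of GRCr8. Tnfsf13b had 2 probe sets, 17709467 and 17713258, which are given apart. Fas was not analysed here.

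Blood came from the tail vein of male Wistar rats, and 1 Affymetrix Rat Gene 2.0 ST array was run per sample. The MIA group held 6 rats that received monosodium iodoacetate, an inhibitor of glycolysis that kills cartilage cells, in saline into the right knee; their day 0 sample was taken before the injection, and the others at days 2, 14, 21 and 28 after it. The naive group held 4 intact rats bled on the same 5 days. The labels were followed for these numbers, although the methods state 6 samples per group. MIA was injected under isoflurane anesthesia, and no group received saline alone. The anesthesia, the needle and the fluid therefore cannot be told apart from MIA. Repeated bleeding was common to both groups.

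Ligands of this family are mostly made as membrane proteins of leukocytes, act as trimers, and can be cut from the cell surface. Their receptors either recruit TRAF adaptors that activate NF-kB and MAP kinases or, where they carry a death domain, can also start apoptosis. In blood the family is known for the help that T cells give to B cells, for lymphocyte survival and for the inflammatory action of TNF, and in the joint its RANK ligand branch governs bone resorption.

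Values are log2 signals per probe set after the authors' normalization, and a difference of 1 stands for a doubling of signal. Signals of different probe sets are not compared as amounts of RNA, because each probe set binds with its own strength. In whole blood, fewer cells of a type cannot be told apart from less RNA per cell. The array of MIA day 21 replicate 4 stood apart from the rest: its log2 signals had an SD of 1.00 over probe sets, against 1.80 to 1.99 on the other 49 arrays, and it read 2.96 for Tnfrsf26 and 5.16 for Cd40lg. It was left out, which leaves 5 MIA rats at day 21, and values with it are given where they matter. Changes were tested with limma across all 36685 probe sets, two-sided, and a member was called where its p, adjusted over all of them by the Benjamini-Hochberg method, was under 0.05.

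The promoters of 4 of the 6 members called in MIA rats at day 28 are shown first, being those for which a promoter sequence was available. The sequences are RefSeq promoters of GRCr8, from 250 bases before to 50 after the start of the gene, written 5′ to 3′ along the gene. Capitals mark matches, on either strand, to an NF-kB motif (GGGNNNNNCC), to the NFAT core (GGAAAA) or to an AP-1 motif (TGANTCA), where N is any base.
Ltb (chr20:3634005-3634304, reverse strand): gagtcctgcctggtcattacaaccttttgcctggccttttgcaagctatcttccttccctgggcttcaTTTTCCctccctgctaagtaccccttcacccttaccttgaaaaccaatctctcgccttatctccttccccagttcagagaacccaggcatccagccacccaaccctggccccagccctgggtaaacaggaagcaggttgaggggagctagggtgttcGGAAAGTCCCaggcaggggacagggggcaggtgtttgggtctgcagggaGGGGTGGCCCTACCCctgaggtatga
Tnfrsf12a (chr10:13213599-13213898, reverse strand): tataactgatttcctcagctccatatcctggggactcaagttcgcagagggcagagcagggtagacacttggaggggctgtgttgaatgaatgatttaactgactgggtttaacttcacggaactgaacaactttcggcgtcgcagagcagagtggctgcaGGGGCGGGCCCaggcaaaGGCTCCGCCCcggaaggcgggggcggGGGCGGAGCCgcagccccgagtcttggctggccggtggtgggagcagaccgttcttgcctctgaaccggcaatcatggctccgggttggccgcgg
Tnfrsf1a (chr4:159836869-159837168, forward strand): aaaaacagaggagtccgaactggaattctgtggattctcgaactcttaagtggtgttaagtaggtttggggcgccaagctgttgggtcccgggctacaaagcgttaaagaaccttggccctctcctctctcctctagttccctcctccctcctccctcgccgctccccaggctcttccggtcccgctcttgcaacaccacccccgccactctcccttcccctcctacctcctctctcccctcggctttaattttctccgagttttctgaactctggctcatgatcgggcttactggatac
Tnfrsf26 (chr1:208252381-208252680, reverse strand): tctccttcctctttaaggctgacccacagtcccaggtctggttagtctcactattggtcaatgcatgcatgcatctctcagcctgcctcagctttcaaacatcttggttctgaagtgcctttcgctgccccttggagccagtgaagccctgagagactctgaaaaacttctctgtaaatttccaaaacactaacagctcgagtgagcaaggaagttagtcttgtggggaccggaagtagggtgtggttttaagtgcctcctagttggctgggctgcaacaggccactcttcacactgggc

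The promoter of Ltb held 3 matches to the NF-kB letters, of which 2 overlap, and 1 to the NFAT core. That of Tnfrsf12a held 4 NF-kB matches, some of them overlapping, and those of Tnfrsf1a and Tnfrsf26 held no match to any of the 3 motifs. Such short motifs are common: NF-kB letters occurred in 47.3% of 33365 rat promoters of this length, the NFAT core in 24.7% and the AP-1 letters in 7.34%. Of the 23 members with a promoter in the table, 14 held the NF-kB letters, 5 the NFAT core and 2 the AP-1 letters. The matches are a description of letters and were not tested as binding sites. For Cd40lg, Tnfrsf11a and Tnfrsf14 no promoter sequence was available, so they are named only.

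Before injection the brightest members over the 10 rats were Tnfrsf14 at 7.20 ± 0.19, Cd27 at 7.16 ± 0.32, Tnfrsf13c at 6.63 ± 0.49, Tnfrsf1b at 6.59 ± 0.27 and Tnfrsf26 at 6.35 ± 0.15 (mean log2 signal ± SD, n = 10). All of them are receptors, and Tnfrsf13c, which binds the B cell survival factor BAFF, and Cd27 are typical of lymphocytes. The dimmest were Tnfsf18 at 1.38 ± 0.13, Tnfrsf17 at 1.69 ± 0.13 and the Tnfsf13b probe set 17709467 at 1.72 ± 0.22. MIA and naive rats were also compared at day 0, since every later change refers to that sample. No member was called there by limma, where 0% of all probe sets were called, and 2 had an unadjusted p under 0.05, as had 4.24% of all. These were Tnfrsf11a, with MIA minus naive at 0.47 ± 0.16 (SE, limma adjusted p = 0.959), and Tnf, with 0.51 ± 0.17 (limma adjusted p = 0.959). Next came Tnfrsf12a, with 0.33 ± 0.16 (limma adjusted p = 1.00).

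In MIA rats members were called at day 28 only. No member was called at day 2 or day 14, when 0% of all probe sets were called, nor at day 21, when 0.665% were. At an unadjusted p under 0.05 there were 3 members at day 2 (5.65% of all probe sets), 3 at day 14 (6.65%) and 7 at day 21 (13.6%). At day 28, 6 of 32 probe sets were called, where 4.26% of all were. Of these, 4 were higher, where 2.39% of all probe sets were higher, and 2 were lower, where 1.87% were lower. The higher ones were Tnfrsf26, Cd40lg, Tnfrsf1a and Ltb, and the lower ones Tnfrsf12a and Tnfrsf11a. A further 7 had an unadjusted p under 0.05 only, which makes 13 of 32 where 21.5% of all probe sets had one. The median change of the 32 probe sets was 0.09 and 19 of them were positive, whereas the median over all probe sets was -0.02, with 46.5% positive. All probe sets here include 21032 that are unnamed, and they were not matched to the members for signal.

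Naive rats had 1 call over the same weeks. No member was called at day 2 (0% of all probe sets), day 14 (0.00273%) or day 21 (0.333%, with 0.0382% higher), and 1, 5 and 1 had an unadjusted p under 0.05 on those days, as had 5.08%, 6.90% and 12.7% of all. At day 28 Cd40lg was called and was higher, where 2.04% of all probe sets were called, 1.16% higher and 0.886% lower, and 7 members had an unadjusted p under 0.05, all of them higher, where 14.8% of all probe sets had one. The median change of the family at day 28 was 0.13 in naive rats, with 22 of 32 positive, against -0.01 and 48.6% over all probe sets. Both treatments are set against their own day 0 samples, and the comparisons of the 4 days within a treatment share them.

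**Figure D1:**
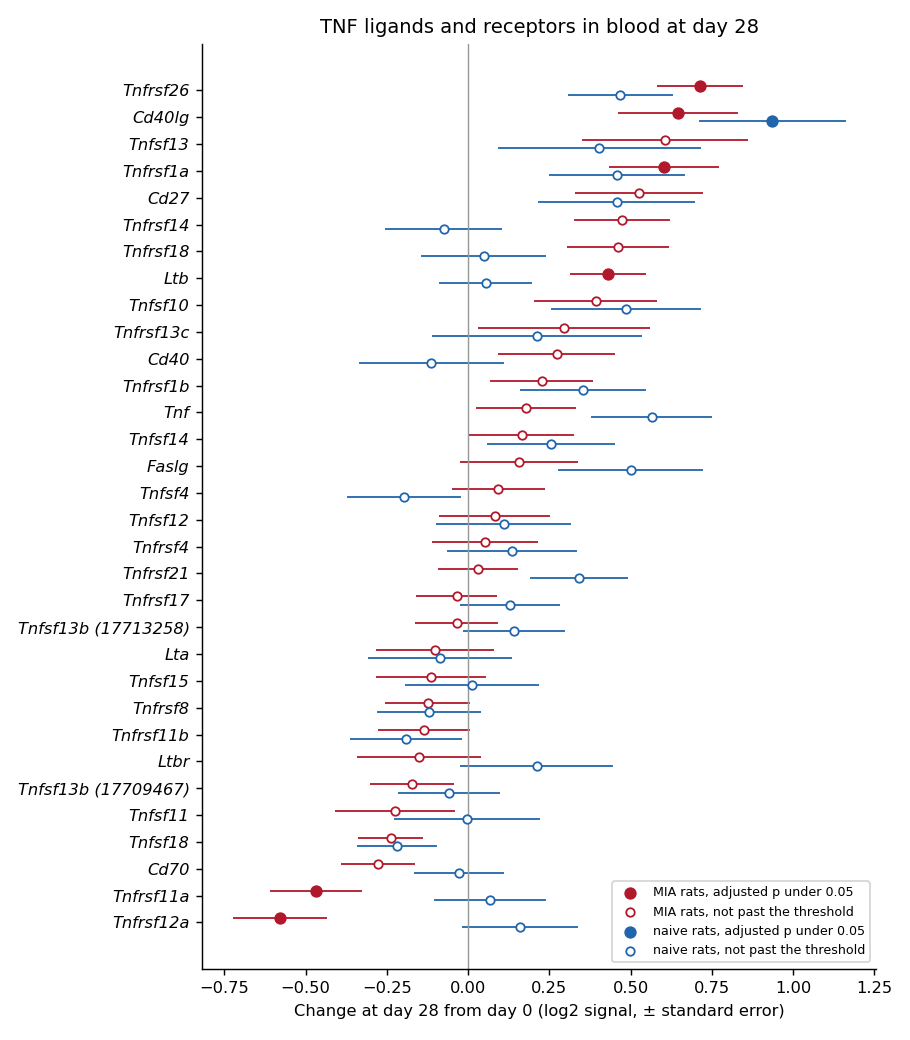
Mean change in log2 signal at day 28 from day 0 for all 32 probe sets, in MIA rats (red) and naive rats (blue), with bars for 1 standard error and filled points where the adjusted p was under 0.05. In MIA rats 6 points are filled, from Tnfrsf26 at 0.71 to Tnfrsf12a at -0.58, and in naive rats only Cd40lg at 0.94.

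Among the ligands, Cd40lg had the largest change at day 28 in both treatments. It encodes CD40 ligand (probe set 17874691), by which activated helper T cells stimulate B cells and other antigen-presenting cells. In MIA rats it ran from 6.44 to 7.41 (median 6.96) at day 28, against 5.60 to 6.89 (median 6.37) at day 0. In naive rats it was 7.06, 6.68, 6.84 and 7.48 at day 28, against 5.90, 5.99, 5.89 and 6.54 at day 0. The 2 days overlapped in MIA rats, whose starting levels were widely spread, but not in naive rats, and it was higher at day 28 in all 10 rats. It differed from day 0 by 0.65 ± 0.18 in MIA rats (SE, n = 6, limma adjusted p = 0.0367) and 0.94 ± 0.23 in naive rats (SE, n = 4, limma adjusted p = 0.0183). The MIA change minus the naive change was -0.29, with a 95% interval of -0.88 to 0.30. By day, its mean was 6.30, 6.34, 6.43, 6.62 and 6.95 in MIA rats, with 6.08, 6.21, 6.64, 6.72 and 7.01 in naive rats at days 0, 2, 14, 21 and 28. In naive rats the earlier changes were 0.56 at day 14 (limma adjusted p = 0.638) and 0.65 at day 21 (adjusted p = 0.198, and 0.0182 with the rat as a fixed term of the model), with 4 of 4 rats above their day 0 on both days. With both treatments averaged, it was called at day 21, at 0.48 ± 0.15 (limma adjusted p = 0.0479), the only member, where 5.03% of all probe sets were called. That call was lost without any one of 7 of the 10 rats (adjusted p up to 0.175), with all 50 arrays (0.343), with repeated quantile normalization (0.0523) and with ordinary variances (0.0530). The MIA call at day 28 was lost without any one of MIA rats 1 to 4 (adjusted p up to 0.139), and the naive call without naive rat 1, 3 or 4 (up to 0.126). Repeated quantile normalization also lost the MIA call at day 28 and kept the naive one.

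Cd40, the receptor of this ligand on B cells and monocytes, was not called at day 28. It changed by 0.27 ± 0.18 in MIA rats (5 of 6 higher, limma adjusted p = 0.394) and by -0.11 ± 0.22 in naive rats (4 of 4 lower, limma adjusted p = 0.880).

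Ltb, which encodes lymphotoxin beta, the membrane anchor of the lymphotoxin made by lymphocytes, was higher in MIA rats (probe set 17756346). It ran from 6.41 to 6.83 (median 6.63) in MIA rats at day 28, against 5.97 to 6.33 (median 6.26) at day 0. Naive rats had 6.22, 6.39, 6.20 and 6.31 at day 28, against 6.10, 6.28, 6.28 and 6.24 at day 0. Every MIA value of day 28 lay above every MIA value of day 0 and above every naive value of day 28, while the 2 days of the naive rats overlapped. The mean change came to 0.43 ± 0.12 in MIA rats (SE, 6 of 6 higher, limma adjusted p = 0.0292) and 0.05 ± 0.14 in naive rats (limma adjusted p = 0.917). The difference of the changes was 0.38 ± 0.19 (limma adjusted p = 1.00), and its own interval, not adjusted for the number of probe sets, was 0.00 to 0.75. The MIA call was lost without MIA rat 1, 2, 3, 4 or 6, with adjusted p up to 0.141, and when quantile normalization was repeated.

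Ltb lies in the MHC region of chromosome 20 next to Tnf and Lta, with no other protein-coding gene between them in GRCr8, and neither neighbour was called in MIA rats at day 28. Lta, the soluble partner of Ltb in lymphotoxin, changed by -0.10 ± 0.18 in MIA rats and -0.09 ± 0.22 in naive rats at day 28 (limma adjusted p = 0.788 and 0.913). Ltbr, the receptor of the lymphotoxin heterotrimer on stromal and myeloid cells, changed by -0.15 ± 0.19 in MIA rats and 0.21 ± 0.23 in naive rats (limma adjusted p = 0.688 and 0.752). At day 2 Ltbr was at lower signal in 6 of 6 MIA rats, with a change of -0.43 ± 0.19 (limma adjusted p = 0.856).

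Tnf itself, the inflammatory cytokine that names the family (probe set 17752747), ran from 3.37 to 3.94 (median 3.68) in MIA rats at day 28, against 3.09 to 3.83 (median 3.50) at day 0. Naive rats had 3.77, 3.91, 3.40 and 3.19 at day 28, against 2.82, 3.29, 2.91 and 2.99 at day 0. Most MIA rats began above the naive rats at day 0, and the 2 groups covered much the same range at day 28. Set against day 0, it differed by 0.18 ± 0.15 in MIA rats (limma adjusted p = 0.528) and 0.56 ± 0.19 in naive rats (4 of 4 higher, limma adjusted p = 0.105), and neither was called. By day, the mean was 3.52, 3.45, 3.45, 3.66 and 3.69 in MIA rats, with 3.00, 3.39, 3.47, 3.37 and 3.57 in naive rats at days 0, 2, 14, 21 and 28. The MIA change minus the naive change was -0.46 at day 2, -0.54 at day 14, -0.22 at day 21 (95% interval -0.72 to 0.28) and -0.39 at day 28 (limma adjusted p = 0.913, 1.00, 1.00 and 1.00). These 4 differences share the day 0 samples, at which Tnf had the second smallest p between treatments. Averaged over both treatments, Tnf was called at day 28, at 0.37 ± 0.12 (8 of 10 rats higher, limma adjusted p = 0.0371), and the call was lost without any one of 7 of the 10 rats (adjusted p up to 0.158). Repeated quantile normalization lost this call as well.

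Tnfsf10 encodes TRAIL, a death-inducing ligand carried by NK cells, T cells and neutrophils (probe set 17737479). It ran from 2.78 to 3.38 (median 3.09) in MIA rats at day 28, against 2.24 to 2.95 (median 2.71) at day 0. Naive rats had 2.74, 2.76, 3.13 and 3.37 at day 28, against 2.30, 2.37, 2.75 and 2.63 at day 0. The days overlapped in both treatments, yet all 10 rats were higher at day 28. It differed from day 0 by 0.39 ± 0.19 in MIA rats and 0.49 ± 0.23 in naive rats (limma adjusted p = 0.218 and 0.314), and only their average, 0.44 ± 0.15, was called (limma adjusted p = 0.0461). This call was lost without any one of 9 of the 10 rats, with adjusted p up to 0.111. Repeated quantile normalization and ordinary variances lost this call as well.

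Tnfsf18, the ligand of the costimulatory receptor GITR, was the dimmest member (probe set 17681381). It ran from 1.03 to 1.28 (median 1.13) in MIA rats at day 28, against 1.31 to 1.49 (median 1.35) at day 0, and was 1.24, 1.23, 0.99 and 1.15 in naive rats at day 28, against 1.30, 1.13, 1.45 and 1.60 at day 0. MIA values of the 2 days did not overlap, and naive values did. The average change over both treatments was -0.23 ± 0.08 (limma adjusted p = 0.0502, and 0.0409 with the rat as a block). Its mean signal over the 49 arrays lay at the 14.5th percentile of all probe sets.

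Of the other ligands none was called on any day in either treatment, apart from Tnfsf13 when the rat was a fixed term of the model. Tnfsf13, which encodes APRIL, a survival factor of plasma cells, had one of the larger estimates, with 0.61 ± 0.26 in MIA rats at day 28 (5 of 6 higher, limma adjusted p = 0.155) and 0.40 ± 0.31 in naive rats. With that term, which compares each rat with its own day 0, it was called higher at day 28 in MIA rats (limma adjusted p = 0.0314, where 7.58% of all probe sets were called) and in the average of both treatments (limma adjusted p = 0.0123, where 14.3% were). Faslg, the death ligand of cytotoxic cells, had 0.16 ± 0.18 in MIA rats and 0.50 ± 0.22 in naive rats at day 28 (4 of 4 naive rats higher, limma adjusted p = 0.269). Cd70, the ligand of CD27 on activated lymphocytes, had -0.28 ± 0.11 in MIA rats (5 of 6 lower, limma adjusted p = 0.141) and -0.03 ± 0.14 in naive rats. The 2 probe sets of Tnfsf13b, which encodes BAFF, gave -0.17 and -0.03 in MIA rats at day 28. At day 2 in MIA rats Tnfsf4, the ligand of OX40, had the second smallest p, with 0.36 ± 0.14 (5 of 6 higher, limma adjusted p = 0.816). Tnfsf15, a costimulatory ligand of the vessel wall and myeloid cells, stood second at day 14, with -0.39 ± 0.17 (5 of 6 lower, limma adjusted p = 0.706). Signals of Tnfsf4 and Cd70 were low, with means over the 49 arrays of 1.91 and 1.82, at the 39.6th and 37.0th percentiles of all probe sets.

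**Figure D2:**
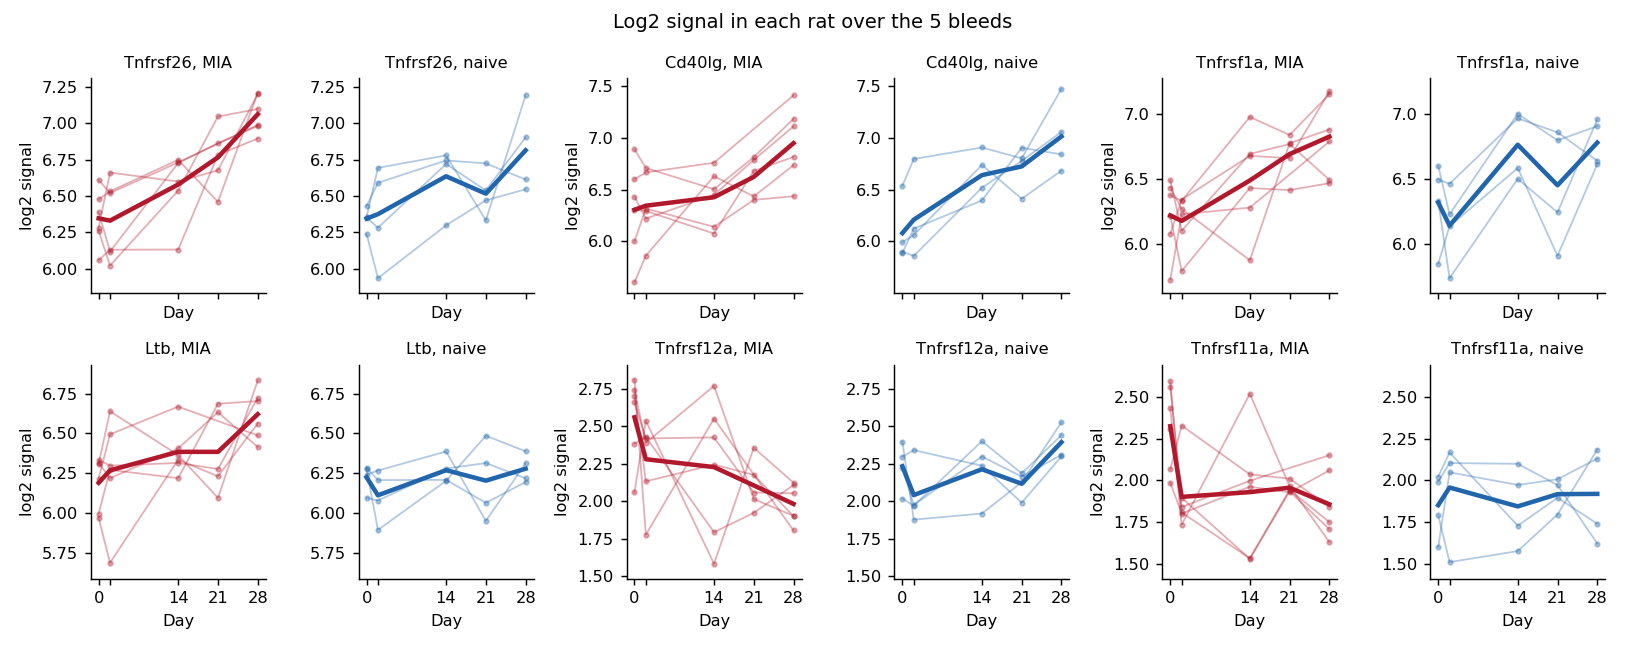
Log2 signal against day for the 6 members called in MIA rats at day 28, 1 thin line per rat and a thick line for the mean, with MIA rats (red) left of naive rats (blue) for each gene and a shared vertical range per gene. The mean of Tnfrsf26 was 7.06 ± 0.13 (SD) in MIA rats at day 28, against 6.35 ± 0.19 at day 0, while Tnfrsf12a in MIA rats had 1.98 ± 0.13 at day 28, against 2.56 ± 0.29 at day 0.

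The receptor Tnfrsf26 had the smallest adjusted p of the family (probe set 17638739). It is described mainly in mouse, where its ligand and signal are not settled and where it lies near other receptors of the family. In MIA rats it ran from 6.89 to 7.21 (median 7.04) at day 28, against 6.06 to 6.61 (median 6.34) at day 0. In naive rats it was 6.55, 6.61, 6.90 and 7.19 at day 28, against 6.24, 6.43, 6.35 and 6.36 at day 0. The 2 days did not overlap in either treatment, and all 10 rats were higher at day 28. The mean change came to 0.71 ± 0.13 in MIA rats (SE, limma adjusted p = 0.00119), 0.47 ± 0.16 in naive rats (adjusted p = 0.122) and 0.59 ± 0.10 averaged over both (adjusted p = 0.000142). The MIA change minus the naive change had a 95% interval of -0.17 to 0.67. In MIA rats the means at days 0, 2, 14, 21 and 28 were 6.35, 6.33, 6.58, 6.77 and 7.06, and in naive rats 6.34, 6.38, 6.64, 6.52 and 6.81. The 5 MIA values at day 21 were 7.05, 6.78, 6.86, 6.46 and 6.68, a change of 0.42 ± 0.14 (4 of 5 higher, limma adjusted p = 0.147, and 0.0444 with the rat as a fixed term). It was the only member called in MIA rats at day 28 whichever rat was left out, with adjusted p up to 0.0111.

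Tnfrsf1a, the main receptor of TNF on most cells and one that carries a death domain (probe set 17787389), ran from 6.47 to 7.17 (median 6.83) in MIA rats at day 28, against 5.73 to 6.49 (median 6.30) at day 0. Naive rats had 6.96, 6.90, 6.64 and 6.61 at day 28, against 6.33, 6.60, 6.49 and 5.85 at day 0. The MIA ranges of the 2 days met at their edges and the naive ranges were barely apart. Set against day 0, it differed by 0.60 ± 0.17 in MIA rats (6 of 6 higher, limma adjusted p = 0.0338) and 0.46 ± 0.21 in naive rats (4 of 4 higher, limma adjusted p = 0.283). Averaged over both it was 0.53 ± 0.13 (10 of 10 higher, limma adjusted p = 0.00652), and the difference between treatments had a 95% interval of -0.40 to 0.69. Means at days 0, 2, 14, 21 and 28 were 6.22, 6.18, 6.49, 6.69 and 6.82 in MIA rats, with 6.32, 6.14, 6.76, 6.45 and 6.78 in naive rats. The MIA call was lost without any one of MIA rats 1 to 4 (adjusted p up to 0.182), whereas the averaged call held whichever rat was left out (up to 0.0291).

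The other TNF receptor, Tnfrsf1b, which lacks a death domain and is abundant on leukocytes, changed by 0.23 ± 0.16 in MIA rats and 0.35 ± 0.19 in naive rats at day 28 (limma adjusted p = 0.421 and 0.409). Their average of 0.29 ± 0.13 was called only with the rat as a fixed term (limma adjusted p = 0.0177, against 0.125 without it). Tnfrsf21, a death receptor also called DR6, was higher in 4 of 4 naive rats at day 28, with 0.34 ± 0.15 (limma adjusted p = 0.264), and had 0.03 ± 0.12 in MIA rats.

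Cd27, a costimulatory receptor of T cells, NK cells and memory B cells (probe set 17794995), ran from 7.17 to 8.19 (median 7.86) in MIA rats at day 28, against 6.81 to 7.71 (median 7.27) at day 0. Naive rats had 7.51, 7.32, 7.56 and 7.29 at day 28, against 6.78, 6.85, 7.14 and 7.08 at day 0. The days overlapped in MIA rats and not in naive rats, and all 10 rats were higher. It differed from day 0 by 0.53 ± 0.20 in MIA rats and 0.46 ± 0.24 in naive rats (limma adjusted p = 0.108 and 0.380), and their average of 0.49 ± 0.16 was called (adjusted p = 0.0314). In MIA rats it was called with the rat as a fixed term (limma adjusted p = 0.0356). The call of the average was lost without any one of 6 of the 10 rats (adjusted p up to 0.0778). Cd27, Ltbr and Tnfrsf1a lie close together on chromosome 4, with 1 protein-coding gene between each pair of neighbours in GRCr8, and Ltbr, which lies between the other two, was not called.

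Tnfrsf14 encodes HVEM, the receptor of LIGHT and a ligand of inhibitory receptors on lymphocytes (probe set 17813143). In MIA rats it ran from 7.60 to 8.04 (median 7.66) at day 28, against 7.06 to 7.47 (median 7.26) at day 0. In naive rats it was 6.84, 6.67, 7.36 and 7.26 at day 28, against 6.93, 7.13, 7.30 and 7.06 at day 0. Every MIA rat at day 28 was above every MIA value of day 0 and every naive value of day 28, and naive values of the 2 days overlapped. The mean change came to 0.47 ± 0.15 in MIA rats (6 of 6 higher, limma adjusted p = 0.0536, and 0.0460 with the rat as a block) and -0.07 ± 0.18 in naive rats (limma adjusted p = 0.906). The difference was 0.55 ± 0.23 with a 95% interval of 0.08 to 1.02 (limma adjusted p = 1.00). Its means at days 0, 2, 14, 21 and 28 were 7.26, 7.01, 7.49, 7.38 and 7.74 in MIA rats, with 7.11, 7.12, 7.44, 7.11 and 7.03 in naive rats. The test over the 4 days together called it in MIA rats (limma adjusted p = 0.0161). Its ligand Tnfsf14 had 0.16 ± 0.16 in MIA rats and 0.26 ± 0.20 in naive rats at day 28.

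**Figure D3:**
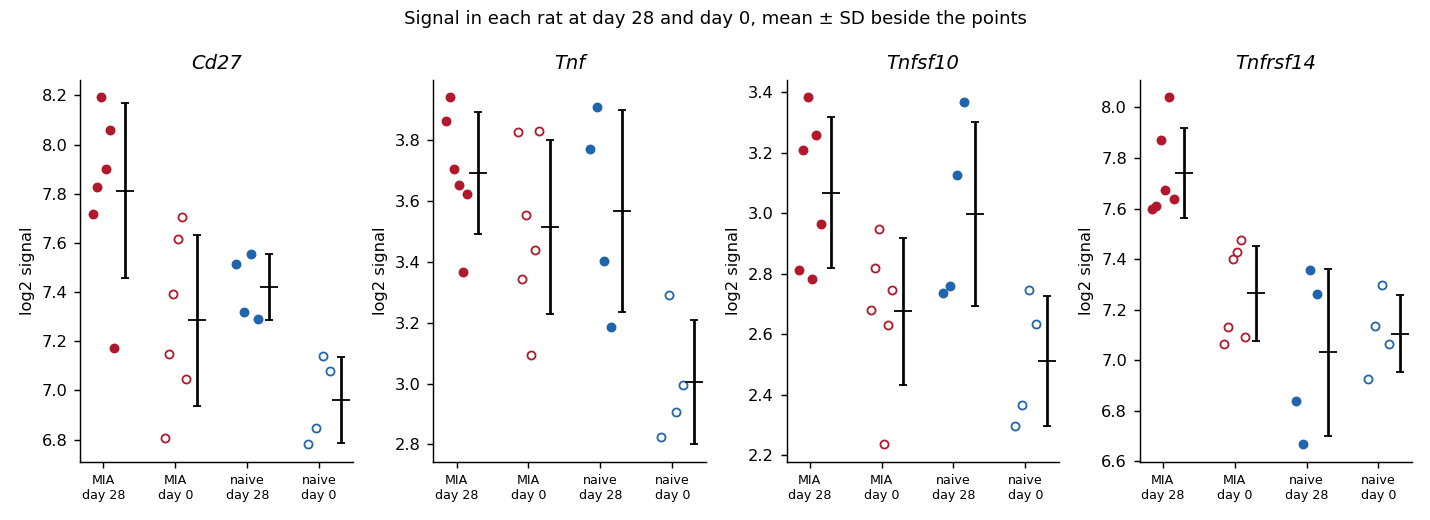
Log2 signal in each rat at day 28 (filled points) and day 0 (open points) for Cd27, Tnf, Tnfsf10 and Tnfrsf14, MIA rats in red and naive rats in blue, with the mean and 1 SD beside each group and a vertical axis that does not start at 0. Tnfrsf14 in MIA rats at day 28, 7.60 to 8.04 (median 7.66), lies above the other 3 groups, while Tnf is low in naive rats at day 0.

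Both members that fell in MIA rats are receptors, and their mean log2 signals over the 49 arrays were 2.22 for Tnfrsf12a and 1.95 for Tnfrsf11a. By this mean both ranked below the median of all probe sets, so both falls lie in low signal. How far these signals lay above background was not tested. Tnfrsf12a encodes Fn14, the receptor of TWEAK, which is known for its induction in injured tissue (probe set 17654148). It ran from 1.80 to 2.12 (median 1.98) in MIA rats at day 28, against 2.06 to 2.81 (median 2.68) at day 0. Naive rats had 2.30, 2.31, 2.44 and 2.53 at day 28, against 2.30, 2.22, 2.02 and 2.40 at day 0. MIA rat 2 started lowest at day 0 and was the only one not lower at day 28, and every MIA value of day 28 lay below every naive value of that day. Set against day 0, it differed by -0.58 ± 0.15 in MIA rats (5 of 6 lower, limma adjusted p = 0.0182) and 0.16 ± 0.18 in naive rats (4 of 4 higher, limma adjusted p = 0.752). The difference of -0.74 ± 0.23 had the smallest p of the family for a difference between treatments (95% interval -1.20 to -0.28), and its limma adjusted p was 1.00. In MIA rats the mean stepped down over the series, with 2.56, 2.28, 2.23, 2.10 and 1.98 at days 0, 2, 14, 21 and 28, while naive rats had 2.23, 2.04, 2.21, 2.12 and 2.39. The difference of the changes thus rests in part on day 0, when MIA rats stood at 2.56 and naive rats at 2.23. The MIA call was lost without MIA rat 1, 4 or 5 (adjusted p up to 0.0814). Tnfsf12, which encodes TWEAK, changed by 0.08 ± 0.17 in MIA rats and 0.11 ± 0.21 in naive rats.

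Tnfrsf11a encodes RANK, the receptor through which RANK ligand makes osteoclasts from monocyte precursors (probe set 17679361). It ran from 1.63 to 2.15 (median 1.79) in MIA rats at day 28, against 1.99 to 2.59 (median 2.37) at day 0. Naive rats had 1.62, 2.13, 1.74 and 2.18 at day 28, against 1.99, 1.60, 2.02 and 1.79 at day 0. MIA rats stood above naive rats before the injection with little overlap, and the 2 groups covered much the same range at day 28. It differed from day 0 by -0.47 ± 0.14 in MIA rats (5 of 6 lower, limma adjusted p = 0.0463) and 0.07 ± 0.17 in naive rats (limma adjusted p = 0.912). It was near this level by day 2, with means of 2.32, 1.90, 1.93, 1.96 and 1.86 in MIA rats at days 0, 2, 14, 21 and 28, so that all 4 changes rest on the same high day 0 samples. The naive means were 1.85, 1.96, 1.84, 1.92 and 1.92. The MIA change minus the naive change was -0.53, -0.39, -0.43 and -0.54 at days 2, 14, 21 and 28 (limma adjusted p at least 0.816). The MIA call at day 28 was lost without MIA rat 1, 2, 3, 4 or 6 or naive rat 2 or 3 (adjusted p up to 0.200), and when the arrays were shifted to the same median (0.0521). Repeated quantile normalization lost this call as well.

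The rest of the RANK branch was not called. Tnfsf11, which encodes RANK ligand, changed by -0.23 ± 0.18 in MIA rats and -0.00 ± 0.23 in naive rats at day 28. Tnfrsf11b, the decoy receptor osteoprotegerin, changed by -0.13 ± 0.14 in MIA rats and -0.19 ± 0.17 in naive rats.

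Costimulatory and B cell receptors made up most of the remaining members. Tnfrsf18, which encodes GITR of regulatory and activated T cells, was higher in 6 of 6 MIA rats at day 28 by 0.46 ± 0.16 and missed the threshold (limma adjusted p = 0.0785), with 0.05 ± 0.19 in naive rats. In MIA rats Tnfrsf18 was called with array weights, with the arrays shifted to the same median and without naive rat 4. Its neighbour on chromosome 5, Tnfrsf4, which encodes OX40, had 0.05 ± 0.16 in MIA rats and 0.13 ± 0.20 in naive rats. Tnfrsf8, which encodes CD30, had -0.12 ± 0.13 in MIA rats and -0.12 ± 0.16 in naive rats. Tnfrsf13c had 0.30 ± 0.26 in MIA rats and 0.21 ± 0.32 in naive rats, and it was the member that varied most between rats of a group, with a residual SD of 0.47. Tnfrsf17, the APRIL receptor of plasma cells, had -0.03 ± 0.13 in MIA rats and 0.13 ± 0.15 in naive rats.

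**Figure D4:**
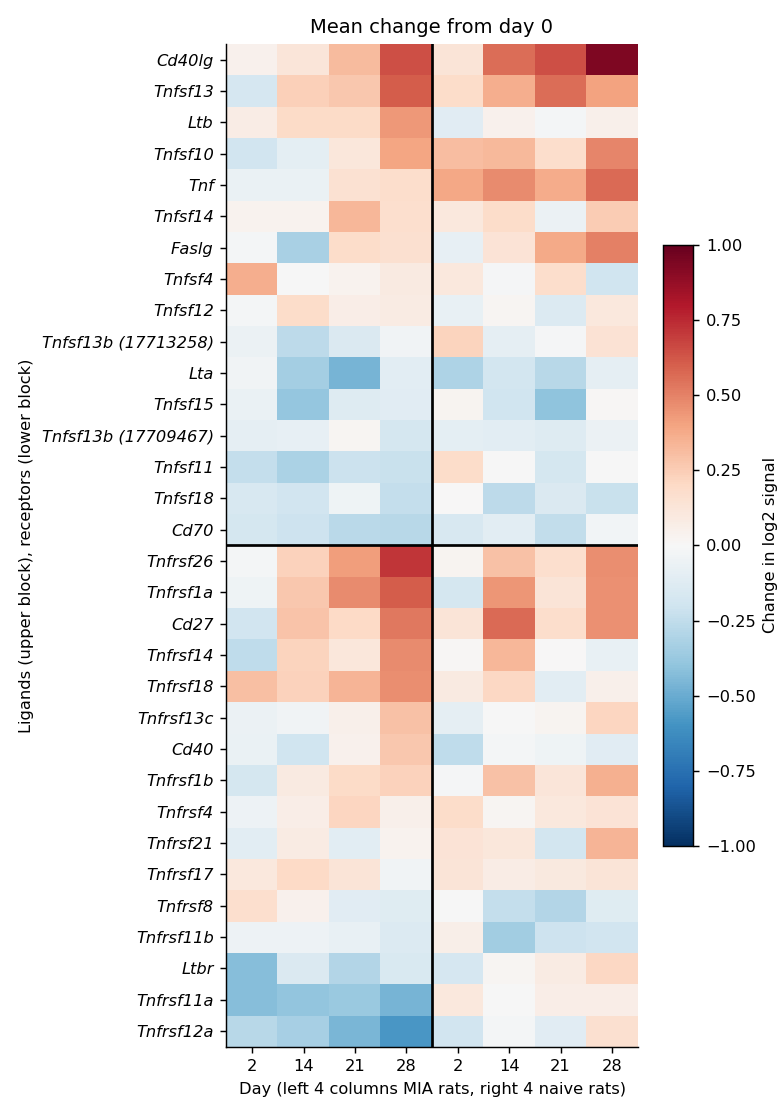
Mean change in log2 signal from day 0 for ligands (upper block) and receptors (lower block), with days 2, 14, 21 and 28 of MIA rats in the left 4 columns and of naive rats in the right 4. Red stands for higher than day 0 and blue for lower, on a scale from -1 to 1; the deepest colours are in the day 28 columns, at 0.94 for Cd40lg in naive rats and -0.58 for Tnfrsf12a in MIA rats.

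The comparison that the study's design turns on, the change in MIA rats minus the change in naive rats, gave no call for the family on any day, nor over the 4 days together, and 0% of all probe sets were called in each of these. Unadjusted p-values under 0.05 were found by limma for 1 member at day 2 (5.61% of all probe sets), 1 at day 14 (4.22%), 0 at day 21 (3.60%) and 4 at day 28 (4.06%). The 4 were Tnfrsf12a and Tnfrsf11a, with the MIA change below the naive one, and Tnfrsf14 and Ltb, with the MIA change above it. Over the 4 days together 2 members had an unadjusted p under 0.05, Tnfrsf14 and Tnfrsf12a, where 4.67% of all probe sets had one. The standard error of such a difference lay between 0.16 and 0.42 among members, and the intervals of most members reached 0.5 or more in at least 1 direction, so the data leave room for sizeable differences that were not detectable with these numbers of rats.

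**Figure D5:**
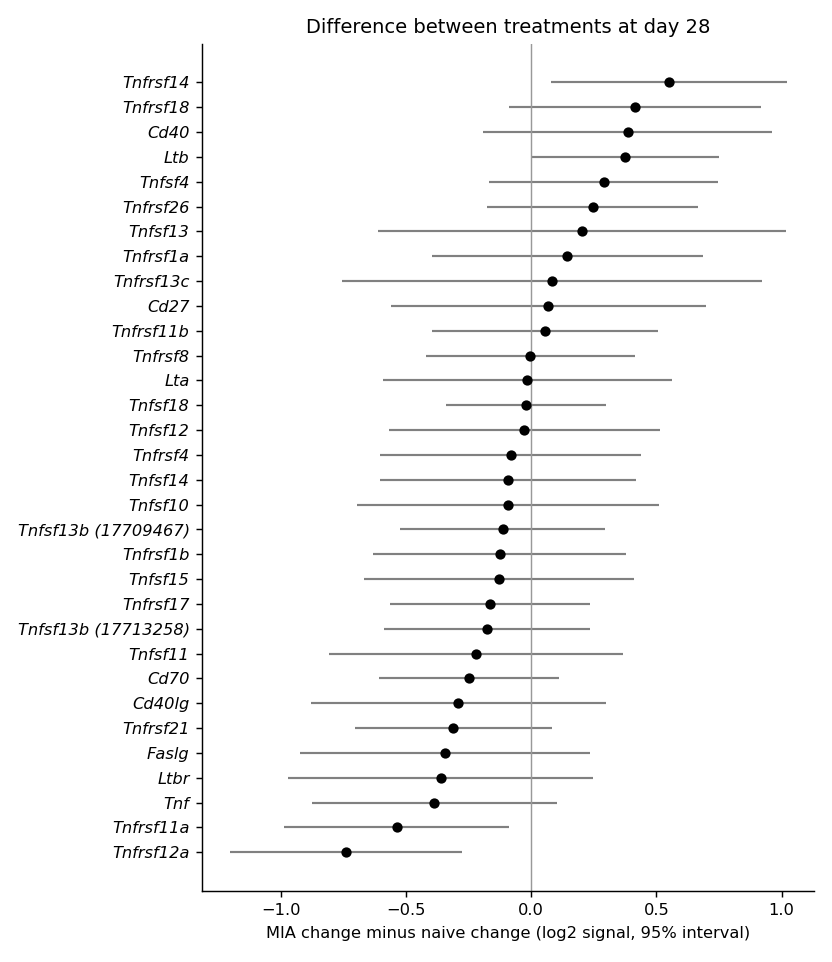
MIA change minus naive change at day 28 for all 32 probe sets in log2 signal, with 95% intervals that are not adjusted for the number of probe sets. The intervals of Tnfrsf14 (0.08 to 1.02) and Ltb lie above 0, those of Tnfrsf12a (-1.20 to -0.28) and Tnfrsf11a below it, and the others cross 0.

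The change that the 2 treatments had in common was tested as well. Averaged over MIA and naive rats, no member was called at day 2 (0% of all probe sets) or day 14 (0.0164%), 1 at day 21 (and Tnfrsf26 with the rat as a fixed term, limma adjusted p = 0.0402) and 6 at day 28, where 12.0% of all probe sets were called. At an unadjusted p under 0.05 there were 2 members at day 2 (4.87% of all probe sets by limma) and 7 at day 14 (9.52%). The 6 were Tnfrsf26, Cd40lg, Tnfrsf1a, Cd27, Tnf and Tnfsf10, and all 6 were higher, where 7.37% of all probe sets were higher. Over the 4 days together, 3 members were called in MIA rats (Tnfrsf26, Tnfrsf14 and Tnfrsf1a, with 3.43% of all probe sets) and none in naive rats (1.11%), where 5 had an unadjusted p under 0.05 by limma and Cd40lg came closest (limma adjusted p = 0.0605, and 0.0362 with the rat as a block). In the average of both treatments 4 were called over the days, Tnfrsf26, Cd40lg, Tnfrsf1a and Cd27, where 10.2% of all probe sets were. With the rat as a fixed term, Cd27, Cd40lg and Tnfsf13 were called over the days in MIA rats as well (6.50% of all probe sets), Cd40lg in naive rats (3.45%), and Tnfrsf1b, Tnfrsf21 and Tnfsf13 in the average (13.2%).

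Genes that act downstream of these receptors were followed with fixed lists, of which only genes with a probe set of a single symbol were measured. At day 28, 2.39% of all probe sets were called higher in MIA rats, 1.16% in naive rats and 7.37% in the average of both, and 1.87%, 0.886% and 4.58% lower. Of the receptor adaptors and ubiquitin ligases and their regulators, 13 of 18 genes were measured by 14 probe sets, of which 1 was called higher in MIA rats, none in naive rats and 4 in the average, and none lower. The median change was 0.30 in MIA rats and 0.29 in naive rats. The one in MIA rats was Traf6, the ubiquitin ligase that links CD40 and RANK to NF-kB, at 0.42 (limma adjusted p = 0.0283), against 0.26 in naive rats. Cyld, a deubiquitinase, had the next smallest p with probe set 17797043, at 0.74 in MIA rats and 0.91 in naive rats (limma adjusted p = 0.0615 and 0.0920). Its other probe set, 17732027, had 0.16 in MIA rats and 0.13 in naive rats. Birc3, an inhibitor of apoptosis recruited by TNF receptors, had 0.56 in MIA rats and 0.36 in naive rats (limma adjusted p = 0.0631 and 0.473). Of the death branch 3 of 9 genes were measured, with 2 called higher in MIA rats, 1 in naive rats and 2 in the average, and none lower. Casp8, the protease that starts receptor-driven apoptosis, was higher by 0.41 in MIA rats and 0.57 in naive rats (limma adjusted p = 0.0492 and 0.0361), and Ripk3, the kinase of necroptosis, had 0.69 in MIA rats and 0.54 in naive rats, where it was not called (limma adjusted p = 0.0194 and 0.205). The third gene, Diablo, which encodes a mitochondrial protein that blocks inhibitors of apoptosis, had -0.52 in MIA rats and 0.10 in naive rats and was not called (limma adjusted p = 0.0520 and 0.879).

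Of the kinases towards NF-kB and MAP kinases 6 of 9 genes were measured, with none called in MIA rats, 1 higher in naive rats at day 28, and 2 higher and 1 lower in the average. Tab3, a binding partner of the kinase TAK1, had the smallest p of the list in MIA rats, at -0.43, with -0.32 in naive rats (limma adjusted p = 0.05003 and 0.343), and was called lower in the average, at -0.38 (limma adjusted p = 0.0129). Those higher in the average were Map3k7 and Chuk, which encodes an IkB kinase. Map3k7, which encodes TAK1, the kinase that adaptor complexes switch on, had 0.38 in MIA rats and 0.75 in naive rats (limma adjusted p = 0.0791 and 0.00743). Adam17, the sheddase that releases TNF and its receptors from the membrane, was called in both treatments, higher by 0.49 in MIA rats and by 0.71 in naive rats (limma adjusted p = 0.0399 and 0.0207). None of the 4 measured family members whose symbols fall outside the rule, Edar, Eda2r, Ngfr and Relt, was called in either treatment, with changes between -0.18 and 0.07 in MIA rats and between -0.28 and 0.29 in naive rats.

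Markers of blood cells moved on the same days, and their part in the changes of the family was not tested. Of all probe sets at day 28, 2.39% were called higher in MIA rats, 1.16% in naive rats and 7.37% in the average. Called lower were 1.87%, 0.886% and 4.58%. At day 28, 7 of 10 NK and cytotoxic cell markers were called higher in MIA rats and 7 of 10 in naive rats, with medians of 0.80 and 0.93. Their mean log2 signal lay between 5.13 and 5.57 on the MIA arrays of day 28, against 4.10 to 4.80 at day 0, and between 5.13 and 5.94 on the naive arrays of day 28, against 4.40 to 4.83 at day 0. The smallest p in MIA rats were those of the granzymes Gzmk, higher by 1.32 in MIA rats and 1.20 in naive rats, and Gzma, higher by 1.61 in MIA rats and 1.12 in naive rats. None of 12 T cell markers was called in either treatment, at medians of 0.43 in MIA rats and 0.34 in naive rats, and 4 were called higher in the average of both. Their mean log2 signal lay between 6.63 and 7.00 on the MIA arrays of day 28, against 5.84 to 6.68 at day 0, and between 6.43 and 6.68 on the naive arrays of day 28, against 5.96 to 6.31 at day 0. None of 5 B cell markers was called, at medians of 0.30 in MIA rats and 0.08 in naive rats. Of 7 monocyte markers 2 were higher in MIA rats and 1 in naive rats (medians 0.42 and 0.28), and of 9 neutrophil markers 3 and 2 (medians 0.59 and 0.61). Of 8 probe sets for red cell precursors, 4 were lower in MIA rats and 2 in naive rats (medians -0.65 and -0.62), and none of 7 platelet markers was called. No marker list held a probe set at 0, and the lowest mean of a marker probe set in any treatment and day was 1.34, in the neutrophil list of naive rats at day 14.

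With the array of MIA day 21 replicate 4 included, no member was called at day 28 in MIA rats (0.0109% of all probe sets) or in naive rats (0.00545%). Averaged over both, only Cd40lg was then called at day 28 (limma adjusted p = 0.0141, where 1.61% of all probe sets were). The adjusted p of Tnfrsf26 in MIA rats at day 28 was 0.393 with it.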

How the data were processed

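Background subtraction, quantile normalization and the logarithm were done by the authors, who deposited log2 signals of 50 arrays for 36685 probe sets; the submitters' processing notes name oligo 1.36.1, and how probes were summarized into probe sets is not given in the sources used here. By the platform annotation, 14824 probe sets carry 1 gene symbol, 829 several and 21032 are unnamed here. The deposited values were used unchanged on 49 arrays. One mean per treatment and day was fitted in R 4.3.3 using limma 3.58.1 and moderated variances, with two-sided tests and Benjamini-Hochberg adjustment over all probe sets within a comparison, and called at 0.05; F tests took 4 days together. The number of arrays limits the precision.

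The labels tie the 5 bleeds to a rat. After removal of group means, arrays of the same rat had a mean correlation of 0.0821 and arrays of different rats -0.0294, with every rat's own mean positive (0.0473 to 0.134), and the rat as a random block had a consensus correlation of 0.0319. This block was an alternative, since the paper names time and treatment as the factors, although it followed each rat over the days. Without the block, the 5 bleeds of a rat were treated as independent, so the SEs given are not those of paired differences. The other alternatives were all 50 arrays, repeated quantile normalization, arrays shifted to the same median, leaving out probe sets with a mean under 1.72, a trended and robust prior, ordinary variances, array weights and leaving out each rat. The rat as a fixed term was added after seeing the data. Background correction, slide and scan could not be varied on a table of processed values.

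Members and lists were chosen with earlier results of these data known, and no list was tested as a set. Named are all members called on a single day, with or without the block, the 3 with the smallest p in each comparison, 12 classical members, the 5 brightest and the 3 dimmest at day 0, and up to 4 genes per list with the smallest p in MIA rats at day 28. Others are named after their values were seen, as ligand or receptor of a named member. Lists covered family members outside the rule, receptor adaptors and ligases, the death branch, kinases, sheddases, and markers of NK and cytotoxic cells, T cells, B cells, monocytes, neutrophils, red cell precursors and platelets. The fits were tested on simulated arrays with independent noise, without an effect of the rat or a change of spread. That simulation could therefore not check the pairing of bleeds or the normalization. Python 3.11.15 and matplotlib 3.10.9 drew the figures.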

Additional observations from a re-analysis of the deposited data

Results flagged for a closer look

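Among 110 groups of rats looked at, which are the 11 members given per sample on each day and treatment, 7 held a rat whose log2 signal stood apart from the rest of its group by Dixon's test, and chance marks about 1 group in 20. Low values were those of Tnfrsf26 in MIA rat 2 at day 14, with 6.13 where the nearest rat had 6.54, Tnfrsf26 in naive rat 1 at day 14, with 6.30 (nearest 6.72), Tnfrsf14 in MIA rat 6 at day 21, with 6.78 (nearest 7.44), and Cd27 in naive rat 1 at day 2, with 6.18 (nearest 7.32). High values were those of Cd40lg in naive rat 4 at day 0, with 6.54 (nearest 5.99), Tnfrsf11a in MIA rat 3 at day 2, with 2.33 (nearest 1.90), and Tnf in naive rat 3 at day 2, with 3.78 (nearest 3.27). Only that of Cd40lg belongs to a comparison of day 28 with day 0, and the naive call of Cd40lg was lost without this rat (limma adjusted p = 0.0595). The call was also lost without naive rat 1 or 3, and the naive change lay between 0.86 and 1.02 whichever rat was left out.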

How the results depend on the processing

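Of the counts of called members, those at days 2 and 14, at day 0 and for the difference between treatments over the 4 days were 0 under every alternative run. At day 28 the 6 calls in MIA rats became 0 with all 50 arrays, which add 1 array of much smaller spread. They became 3 when quantile normalization was repeated (Tnfrsf26, Tnfrsf1a and Tnfrsf12a), and the cause of that loss was not tested. The SD of log2 signals over probe sets ran from 1.93 to 1.99 on MIA arrays of day 28, against 1.86 to 1.91 at day 0. On naive arrays it ran from 1.90 to 1.96, against 1.85 to 1.93. Of the 6 members, the 4 higher had mean log2 signals of 6.31 to 6.58 over the 49 arrays, and the 2 lower 2.22 and 1.95. How far the calls rest on this spread was not tested. Leaving out each rat gave between 1 and 8, with 1 without MIA rat 1 or 4, 2 without MIA rat 2 or 3, and 8 without naive rat 4. The 1 call in naive rats became 0 with all 50 arrays and lay between 0 and 1 without each rat. The 6 calls over all rats became 1 with all 50 arrays and 4 when quantile normalization was repeated, which lost Tnf and Tnfsf10. They lay between 3 and 5 without each rat, with 3 without MIA rat 1, 2 or 3 or naive rat 1 or 3. At day 21, MIA rats had 1 call with the rat as a fixed term (2.68% of all probe sets) and 1 with array weights, Tnfrsf26 in both. Naive rats had 1 with the fixed term at day 21, Cd40lg (1.85% of all probe sets). Array weights gave 9 calls in MIA rats at day 28, with Cd27, Tnfrsf14 and Tnfrsf18 added. Over all rats they gave 7 at day 28, with Ltb added. Shares of all probe sets are not given here for left-out rats, repeated normalization, array weights or the median shift.

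With the rat as a random block the counts at day 28 were 7 in MIA rats, 1 in naive rats and 7 over all rats. Of all probe sets 5.26%, 2.60% and 13.1% were then called, against 4.26%, 2.04% and 12.0% without the block. With the fixed term, chosen after seeing the data, the counts were 9, 1 and 9, where 7.58%, 4.59% and 14.3% of all probe sets were called. The fixed term added Cd27, Tnfrsf14 and Tnfsf13 in MIA rats and Tnfrsf1b, Tnfsf13 and Tnfsf18 over all rats. Apart from Tnfrsf14, Tnfsf18 and the 4 naive days of Cd40lg, the random block changed no call. Shifting the arrays to the same median moved an array by up to 0.16 and gave 7 calls in MIA rats at day 28, of which 6 were higher and 1 lower, against 4 and 2 without the shift. Tnfrsf14 and Tnfrsf18 were added there and Tnfrsf11a was lost. Over all rats the shift gave 7 calls at day 28, with Ltb added. The alternatives were followed for 16 changes of 11 members, and none of these reversed. Of their values under the alternatives, 215 stayed on the same side of the threshold, 77 no longer passed it and 11 newly passed it.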
